A study of Mus musculus with 8 samples.

Results

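Cilium genes were followed through single-cell libraries of the mouse subventricular zone (SVZ), the neurogenic wall of the lateral ventricle. They were chosen by symbol: every gene whose name starts with Dnah, Dnaic, Dnal, Dynlrb, Rsph, Ift, Cfap, Tekt, Bbs or Spag, and that held at least 30 unique molecular identifiers (UMIs, each counted as 1 captured RNA molecule). Of the 27849 gene symbols in the deposited counts, 89 matched and 68 reached the minimum. Cfap61 with 30 UMIs and Tekt2 with 33 lay just inside it, and Dnah1 with 28 just outside. The 68 members were read as 3 groups: 36 of the motile families (Cfap 15, Dnah 7, Rsph 6, Dnal 3, Tekt 3, Dnaic 2), 24 of the general families (Ift 14, Bbs 8, Dynlrb 2) and 8 Spag genes, whose prefix is not given for one structure.

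All mice were on a C57BL/6 background and carried the CGD transgene, in which the Nestin promoter drives CreERT2, histone-fused eGFP (H2B-eGFP) and the diphtheria toxin receptor, joined by P2A peptides. The SVZ was dissected whole, viable cells were sorted, and Drop-seq, a droplet method that counts the 3′ ends of transcripts, was run on 8 libraries. At 2 months there were 3 libraries sorted on GFP (GFP high, GFP low and GFP negative) and 1 of viable cells without a GFP gate, called unsorted here. A second series of viable cells without a GFP gate covered ages of 2 weeks and of 2, 6 and 12 months, with 1 library each. Each group was 1 library, and the labels do not give the number of animals in it. P-values below therefore measure the spread between libraries that differ in gate or age, not between replicate animals.

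A motile cilium beats because dynein arms walk along the doublet microtubules of its axoneme. Dnah, Dnaic and Dnal genes encode the heavy, intermediate and light chains of those arms, Rsph genes the radial spokes that pass signals from the central pair, Tekt genes filaments inside the doublets, and many Cfap genes other parts of the axoneme. Ift genes encode the trains that carry cargo along any cilium, motile or primary, and Bbs genes mostly the BBSome, which moves membrane proteins. In the SVZ the ependymal cells that line the ventricle carry tufts of motile cilia, while astrocyte-like neural stem cells (NSCs) extend 1 primary cilium, a single antenna that signals and does not beat.

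The files held 11017 barcodes, of which 9100 with at least 400 UMIs were used. Kept libraries had 521 to 1708 barcodes and between 672062 UMIs (12 months) and 2570618 UMIs (GFP low), with median UMIs per barcode from 722.5 to 1242. Only 2 barcode sequences occurred in 2 libraries. Barcodes were put into classes by marker genes whose symbols are not among the members. Ccdc153, Tmem212 and Fam183b were picked as markers of ciliated ependymal cells. A high level of motile genes in barcodes chosen by them was thus largely set in advance. Levels and calls in that class describe it and are not separate support for it. The 76 barcodes with at least 3 UMIs of these markers formed the ependymal class. Of these, 59 came from GFP high (4.43% of its barcodes), 8 from unsorted (0.567%), 3 from GFP low, 2 each from 2 weeks and 2 months, 1 each from 6 and 12 months, and 0 of 1060 from GFP negative. The other large classes were astrocytes and NSCs (2621 barcodes), oligodendrocytes (1989), neuroblasts (1556), microglia (823), dividing progenitors (812) and mature neurons (404). No barcode was placed in the choroid plexus class, but the ependymal rule came first and would take in a choroid plexus barcode with these markers.

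The ependymal barcodes were not free of other markers. At least 3 UMIs of the 7 astrocyte markers were found in 48 of the 76, pericyte markers in 9, mature neuron markers in 6 and choroid plexus markers in 3. Aqp4, the water channel of astrocyte endfeet and ependyma, stood at 542.8 CPM (UMIs of a gene per 1000000 UMIs of the barcodes summed) in ependymal and 148.6 CPM in other barcodes, and Slc1a2, an astrocyte glutamate transporter, at 257.1 and 1302. Ependymal barcodes were also deeper, with a median of 2100 UMIs against 817 in astrocytes and NSCs. No doublets were removed, and the part of mixed barcodes in the levels below was not tested.

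The motile families were concentrated in the ependymal barcodes. Levels are in CPM, with 95% intervals that cover counting error only. They are not divided by gene length, so no level is compared between genes. Summed over the 36 motile members the level was 11180 CPM (10690 to 11690) in ependymal barcodes and 514.1 (500.9 to 527.6) in all the others. The highest sum outside the ependymal class was 810.5 in astrocytes and NSCs, then 658.9 in mature neurons, and the lowest was 279.7 in microglia. The general families stood at 5131 CPM (4801 to 5478) in ependymal barcodes and 1055 in the others, with 1187 in astrocytes and NSCs, 1229 in neuroblasts, 1157 in dividing progenitors, 858 in oligodendrocytes and 562 in microglia. Spag genes summed to 1188 CPM in ependymal barcodes and 360.7 in the others.

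**Figure D1:**
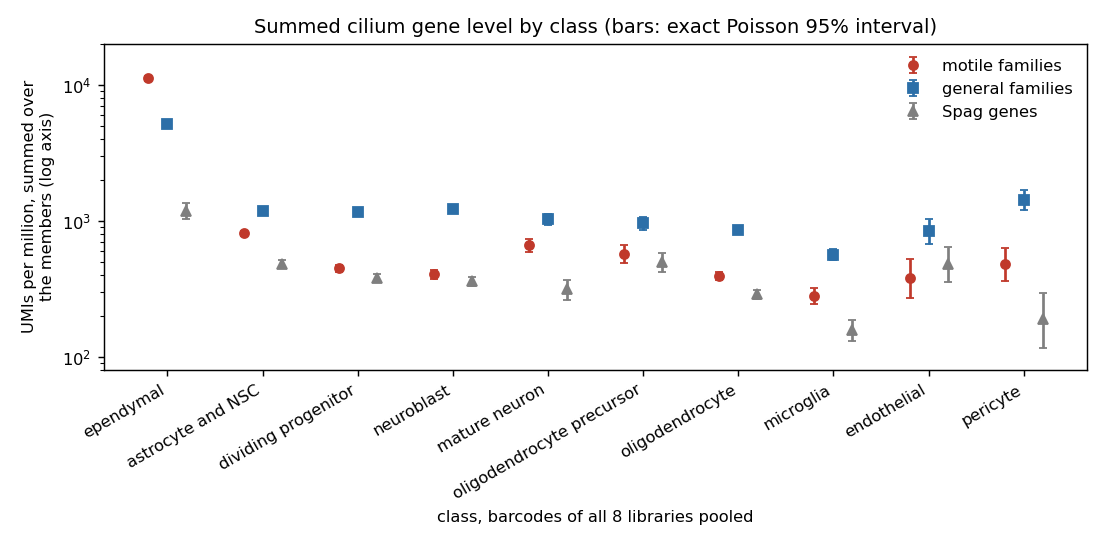
Summed level of each group of cilium genes in each class, in CPM on a log axis, with barcodes of the 8 libraries pooled. Circles are motile families, squares general families and triangles Spag genes, and bars are exact Poisson 95% intervals. The motile sum is 11180 in ependymal barcodes and at most 810.5 in the other classes, while the general sum ranges from 562 in microglia to 5131.

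By prefix, the ependymal and other levels were 2908 and 68.4 CPM for the radial spoke genes (Rsph), 942.8 and 17.9 for the dynein heavy chains (Dnah), 337.1 and 14.8 for Dnaic, 834.2 and 63.2 for Dnal, 651.4 and 10.2 for the tektins and 5508 and 339.6 for Cfap. The general prefixes stood closer together: 2685 and 606.1 for Ift, 342.8 and 94.6 for Bbs, and 2103 and 353.9 for Dynlrb. The Dynlrb sum hid a split between its members. Dynlrb2, a roadblock light chain, was at 1846 CPM in ependymal barcodes and 14.1 in astrocytes and NSCs, whereas Dynlrb1, its close relative in cytoplasmic dynein, was at 257.1 and 255.1.

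The motile sum rose with the number of ependymal marker UMIs in a barcode. The 8956 barcodes with no such UMI had a motile sum of 507.1 CPM, the 60 with 1 UMI 1134 and the 8 with 2 UMIs 1550, and the 10 with 3 or 4 already had 8360. Barcodes with 5 to 7 marker UMIs stood at 8917 and the 55 with 8 or more at 11580. The general sum was 1054, 1154 and 894.5 CPM at 0, 1 and 2 marker UMIs, 3380 at 3 or 4 and 5354 at 8 or more. The marker count is the one that set the ependymal class at 3 UMIs. The largest rise falls at that cut, between groups of 8 and 10 barcodes, so these levels are descriptions only.

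Per barcode, every one of the 76 ependymal barcodes held a motile UMI, with a median of 21.5 (range 1 to 303) from a median of 11 motile genes. Thinned to 400 UMIs each, so that depth was equal, 97.4% of ependymal barcodes still held a motile UMI. The thinned share was 24.5% in astrocytes and NSCs (43.6% before thinning), 14.9% in dividing progenitors (60.1%), 13.6% in oligodendrocytes (30.1%), 13.3% in neuroblasts (33.6%) and 9.48% in microglia (19.9%). For the general families the thinned shares were 81.6% in ependymal barcodes, 35.8% in astrocytes and NSCs, 37.7% in neuroblasts, 37.8% in dividing progenitors and 19.1% in microglia.

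The test of ependymal against all other barcodes used the libraries with at least 5 ependymal barcodes, GFP high and unsorted, with counts summed by class and library and the library as a block (edgeR quasi-likelihood, Benjamini-Hochberg adjusted over all genes tested). Of 36 motile members, 22 were higher in ependymal barcodes at an adjusted p under 0.05 and 0 lower, where 3.1% of the 10002 genes tested were higher and 0.81% lower. A further 6 motile members reached only an unadjusted p under 0.05, none of them lower. The shares of all genes given here are at the adjusted threshold, so counts at an unadjusted p have no share beside them. Dnah8, Rsph3b and Tekt2 did not pass the filter on low counts, and with no filter the count was again 22 of 36 (1.58% of all genes higher, 0.562% lower). Of 24 general members, 1 was higher (Dynlrb2) and 0 lower, with 8 higher at an unadjusted p and 5 not tested. That count was 11 against astrocytes and NSCs only, where 12.6% of all genes were higher and 7.07% lower. With every library that has an ependymal barcode it was 6, with 1 general member (Dynlrb1) and 2 Spag genes (Spag7 and Spag9) lower, in a fit where 7.57% of all genes were higher and 29.7% lower and the median of all genes was -1.12. Calls that were higher made up 79.3% of all calls in the 2-library fit, 68.6% with DESeq2, 64.0% against astrocytes and NSCs only and 20.3% with every library. Of 8 Spag genes, 3 were higher, 0 lower and 2 were not tested. DESeq2 called 17 motile, 1 general and 2 Spag members higher and 0 lower (2.54% and 1.17% of genes with an adjusted p). It did not call Cfap61, Cfap69, Dnah11, Dnaic1, Dnal1, Spag16 and Spag8, whose DESeq2 adjusted p ran from 0.05615 to 0.2093. The median log2 fold change was 4.86 for the motile members tested, 1.68 for the general and -0.45 for all genes, and since a low gene could pass the filter through its ependymal counts alone these medians are descriptions. With 2 libraries and a block the fit has few degrees of freedom. On simulated counts for this comparison 100% of genes raised 16-fold were recovered but 23.5% of those raised 4-fold. The share recovered was smaller still for genes lowered 4-fold. Only genes with at least 100 UMIs in the summed counts were changed in the simulation, at the same dispersion for all genes. Recovery of genes with fewer UMIs was not tested, so these percentages do not apply to such members. A general member that was not called may thus differ 4-fold. The counts of 0 lower do not show that no member was lower.

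Dynein arms. Dnah5, an outer arm heavy chain, was at 223.6 CPM in ependymal and 5.59 in other barcodes of GFP high, and at 118.4 and 1.59 in unsorted (log2 fold change 5.36, SE 1.16, edgeR adjusted p = 0.000264). Dnaic1, an outer arm intermediate chain, was at 198.7 and 39.8 in GFP high and at 296.1 and 3.72 in unsorted (3.48, SE 0.92, adjusted p = 0.006393). Dnal1, a light chain of the outer arm, was at 223.6 and 27.9, then 296.1 and 15.4 (3.23, SE 0.88, adjusted p = 0.008363). For these 3 genes both ependymal sums lay above both sums of other barcodes. Dnah7a, an inner arm heavy chain, had values in the same order, 66.3 and 8.38 in GFP high and 118.4 and 3.19 in unsorted, but did not pass (3.45, adjusted p = 0.1291). Dnaic2 stood at 165.6 and 14.0, then 59.2 and 8.49 (3.21, adjusted p = 0.09768). Dnal4 was at 107.6 and 37.7 in GFP high but at 0 and 35.6 in unsorted, and was not called (0.88).

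Dynlrb2 was at 1664 CPM in ependymal and 19.6 in other barcodes of GFP high, and at 1539 and 1.59 in unsorted, a log2 fold change of 7.44 (SE 0.93, edgeR adjusted p = 9.583e-13). Dynlrb1 was at 273.3 and 254.3 in GFP high and at 177.6 and 304.7 in unsorted, so its classes changed order between the libraries (-0.48, SE 0.77, adjusted p = 0.9378). In the roadblock family Dynlrb2 was thus far above other barcodes in both ependymal sums. Dynlrb1 was slightly above them in GFP high and below them in unsorted.

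Radial spokes and tektins. Rsph1, a spoke head protein, was at 1573 and 36.3 CPM in GFP high and 1717 and 4.78 in unsorted (log2 fold change 6.44, SE 0.88, edgeR adjusted p = 1.326e-10). Rsph4a, another spoke head protein, had a log2 fold change of 7.35 (adjusted p = 1.141e-12). Rsph9, also of the spoke head, was different: 289.8 and 99.9 in GFP high and 177.6 and 28.7 in unsorted, not called (1.7, adjusted p = 0.4595). Tekt1 was at 380.9 and 19.6, then 177.6 and 6.90 (4.19, SE 0.95, adjusted p = 0.0005772), and Tekt4 at 223.6 and 2.10 in GFP high and at 118.4 against 0 in unsorted (7.12, SE 1.34, adjusted p = 1.103e-05).

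Among the Cfap genes the 2 with the most UMIs were the 2 that differed least. Cfap36 was at 612.8 and 208.9 CPM in GFP high and 355.3 and 147.6 in unsorted (log2 fold change 1.15), and Cfap20 at 289.8 and 129.9, then 355.3 and 84.9 (1.25). Neither was called by edgeR. Together they gave 2835 UMIs, 49.1% of all motile UMIs outside the ependymal class. The following genes were chosen after their values were seen. Cfap52 and Cfap45, which encode proteins inside the doublet microtubules, had log2 fold changes of 8.11 (adjusted p = 7.82e-11) and 7.15 (adjusted p = 9.641e-11). Cfap44, of the complex that tethers an inner dynein arm, reached 5.76, and Cfap54 and Cfap46, of the central apparatus, 4.86 and 4.27, all called.

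Transport genes. Ift20, of the IFT-B train, was at 438.9 and 109.0 CPM in GFP high and 532.9 and 101.4 in unsorted (log2 fold change 1.87, edgeR adjusted p = 0.203). Ift74, also of IFT-B, was at 356.1 and 107.6, then 236.8 and 48.8 (1.68). Both genes were higher in ependymal barcodes of both libraries without passing the test. Ift88, a core IFT-B subunit, came nearest among the Ift genes, at 2.91 (SE 0.95, adjusted p = 0.05595). Bbs4, a BBSome subunit, was at 49.7 and 33.5 in GFP high and at 296.1 and 28.7 in unsorted (1.53), and Bbs2 at 58.0 and 46.1, then 0 and 18.6 (0.12). Levels in each library were also counted without a test. In GFP high the ependymal level was higher for 35 of 36 motile, 21 of 24 general and 5 of 8 Spag members. In unsorted it was higher for 32, 15 and 4, and 4 motile, 8 general and 4 Spag members had no ependymal UMI. No share of all genes is given beside these counts. Members such as Cfap52 also reached the UMI minimum largely through ependymal barcodes, which raises the counts, so they are descriptions only.

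Spag genes gave both calls and values near or below 0. Spag6 and Spag16, of the central apparatus, had log2 fold changes of 6.04 (SE 1.15, edgeR adjusted p = 1.62e-05) and 5.06 (SE 1.36, adjusted p = 0.007827), and Spag8 4.3 (SE 1.2, adjusted p = 0.01152). Spag17, also of the central apparatus, was at 280 CPM in ependymal barcodes but had no UMI in those of unsorted and did not pass the filter. Spag9, a scaffold for kinesin and dynein motors that is not a part of the axoneme, was at 132.5 and 238.9 in GFP high and at 236.8 and 218.2 in unsorted (-0.73). Spag7 was at 49.7 and 98.5, then 0 and 80.2 (-1.38, SE 1.06, adjusted p = 0.7438). Spag1, which helps assemble dynein arms before they enter the cilium, was not called (1.09).

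**Figure D2:**
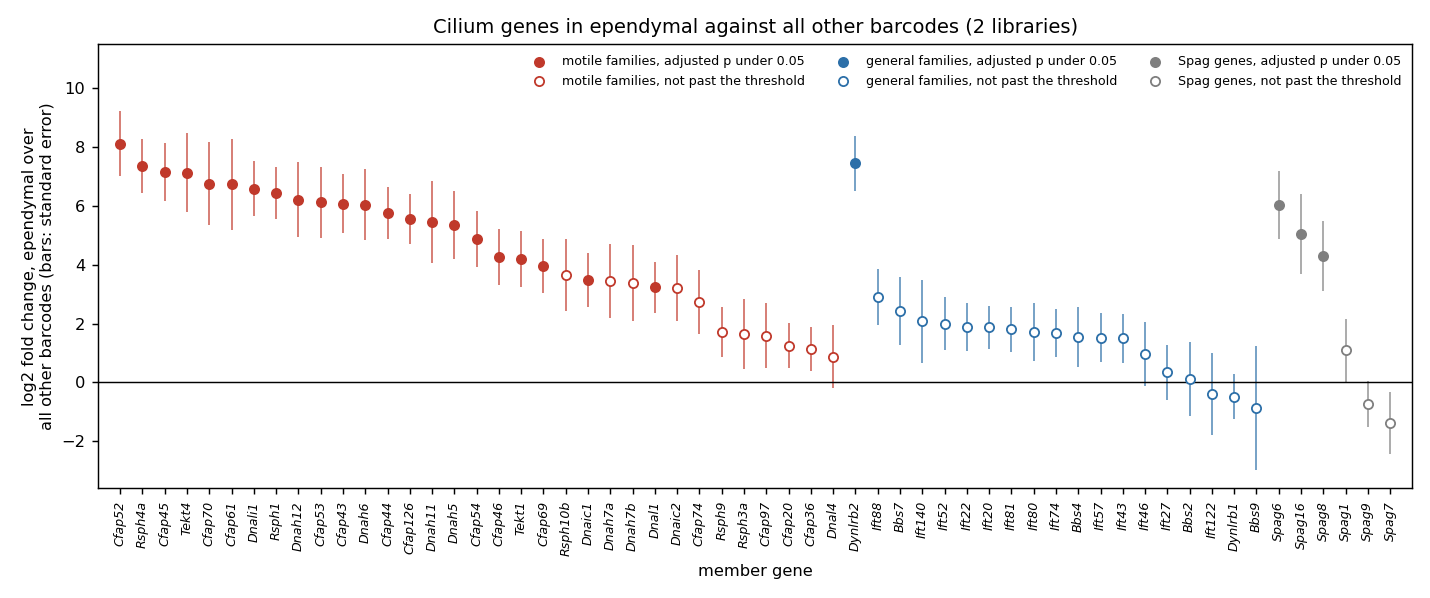
Log2 fold change of each member tested, ependymal over all other barcodes, in the edgeR fit of the GFP high and unsorted libraries. Members are grouped as motile, general and Spag, filled points have an adjusted p under 0.05, and bars are standard errors. Filled points run from Cfap52 (8.11) down to Dnal1 (3.23) among the motile members, while Dynlrb2 (7.44) is the filled point among the general ones.

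The 2 libraries gave the same summed motile level in their ependymal barcodes, 10670 CPM in GFP high and 10660 in unsorted (ratio 1.00, 95% interval 0.856 to 1.18). For the general families the ratio was 0.935 (0.744 to 1.19). Single genes whose interval left out 1 were Cfap44 (513.4 against 1303, ratio 0.394), Bbs4 (0.168), Ift52 (0.256) and Spag17 (38 UMIs against 0), intervals that are not adjusted for the number of members. One 2-week ependymal barcode held 16980 UMIs and 303 motile UMIs, the most of any.

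Genes of the same structures under other names, from lists set up for this comparison with earlier results of the data known, were counted in the same fit. Of 63 other genes of the motile axoneme and of dynein assembly, 44 were tested, 36 were higher and 0 lower in ependymal barcodes. They included Ccdc39 (log2 fold change 3.79) and Ccdc40 (4.79), which set the repeat of the axoneme, Hydin of the central apparatus (5.4), and Zmynd10 (5.57), Lrrc6 (5.69) and Dnaaf3 (5.37), which help assemble dynein. Of 23 genes listed with the regulators of multiciliated cells, 13 were tested and 4 were higher. Among them was Foxj1, the main transcription factor of motile cilia (5.65, SE 0.85, edgeR adjusted p = 8.598e-09). The others, Pifo (5.48), Fam216b (8.28) and Ccdc108 (8.11), stood on that list and are not claimed here as regulators. Rfx2 (3.81, adjusted p = 0.09677), Rfx3 (0.57) and Rfx4 (0.79), which bind the X-box, did not pass. Nor did the factors Myb (3.47, adjusted p = 0.07187), E2f4 (-0.33) and E2f5 (-1.18).

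General cilium genes under other names gave few calls. Of 28 transport genes, 21 were tested and 2 were higher, Ttc30b (3.42) and Wdr60 (2.96). Of 39 genes of the transition zone, the gate at the base of the cilium, and of the ciliary membrane, 31 were tested and 1 was higher, Tmem107 (2.72, edgeR adjusted p = 0.01326), a share near the 3.1% of all genes. Of 16 genes of hedgehog signalling, which in vertebrates runs through the primary cilium, 6 were tested and 0 were called, higher or lower.

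Promoters of the members were read for the X-box, the site of RFX factors that is shared by motile and primary cilium genes, and for the core letters of the FOXJ1 site. RefSeq windows of the GRCm38.p6 assembly, 250 bases before to 50 after each gene's start, matched 58 of 68 members. The X-box, spelled as GTNNCC and GNAAC with 3 bases between them and searched on both strands, was found in 4 of 30 motile members (13.3%), 5 of 21 general members (23.8%) and 2 of 7 Spag genes (28.6%), and in 673 of 27025 genes in all (2.49%). Its left part GTTGCC alone, which overlaps it, was in 36.7%, 42.9% and 42.9% of these and in 14.1% of all genes. The FOXJ1 core TGTTTA was in 20%, 9.52% and 42.9%, against 15.1% of all genes. An X-box was present in 5 of 22 members called higher in ependymal barcodes and in 6 of 36 others with a window. The sequences below show the match in capitals, on the strand of the gene, for 3 called members and 3 general members that were not called.
Spag16, chr1:69826849-69826898, plus strand: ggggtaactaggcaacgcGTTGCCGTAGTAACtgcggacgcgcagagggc
Cfap45, chr1:172521093-172521129, plus strand, match on the opposite strand: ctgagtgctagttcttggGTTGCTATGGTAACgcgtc
Cfap44, chr16:44394754-44394798, plus strand, match on the opposite strand: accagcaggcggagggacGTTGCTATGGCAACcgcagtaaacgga
Bbs7, chr3:36613479-36613528, minus strand: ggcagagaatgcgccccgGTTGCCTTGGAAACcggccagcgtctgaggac
Ift22, chr5:136908099-136908148, plus strand: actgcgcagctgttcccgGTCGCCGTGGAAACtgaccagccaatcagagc
Ift57, chr16:49699189-49699238, plus strand, match on the opposite strand: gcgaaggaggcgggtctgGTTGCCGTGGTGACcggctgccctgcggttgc
These matches begin between 19 bases (Cfap45) and 121 bases (Bbs7) before the start of transcription. They describe letters in these windows and not binding.

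Outside the ependymal class, astrocytes and NSCs were compared with ependymal barcodes gene by gene. To keep the ependyma-rich library out, only their 1490 barcodes outside GFP high were used, set against the 76 ependymal barcodes of all libraries, which come mostly from GFP high. Summed, the motile level there was 6.37% (95% interval 5.91 to 6.86) of the ependymal level and the general level 22.3% (20.6 to 24.2). The percentages spread over a wide range within the motile families. Dnali1, an inner arm light chain, was at 0.136% (0.0034 to 0.78), Rsph4a at 0.174%, Rsph1 at 0.701% (0.402 to 1.14), Cfap126 at 1.76% and Tekt1 at 5.24%. Dnaic1 stood at 12.6% (7.73 to 20.5), Dnal1 at 12.9%, Cfap36 at 27.9%, Cfap20 at 30.1% and Rsph9 at 30.2% (21.7 to 42.6). Spag17 had no UMI, with an upper bound of 0.906%. Among general members Dynlrb2 was at 0.430% (0.22 to 0.762), Ift20 at 22.1%, Ift74 at 32.4%, Ift57 at 39.6% and Dynlrb1 at 104% (76.3 to 144.8), and Spag9 was at 244.7% (162.6 to 385.4). The part of RNA from ependymal cells in these levels was not tested.

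**Figure D3:**
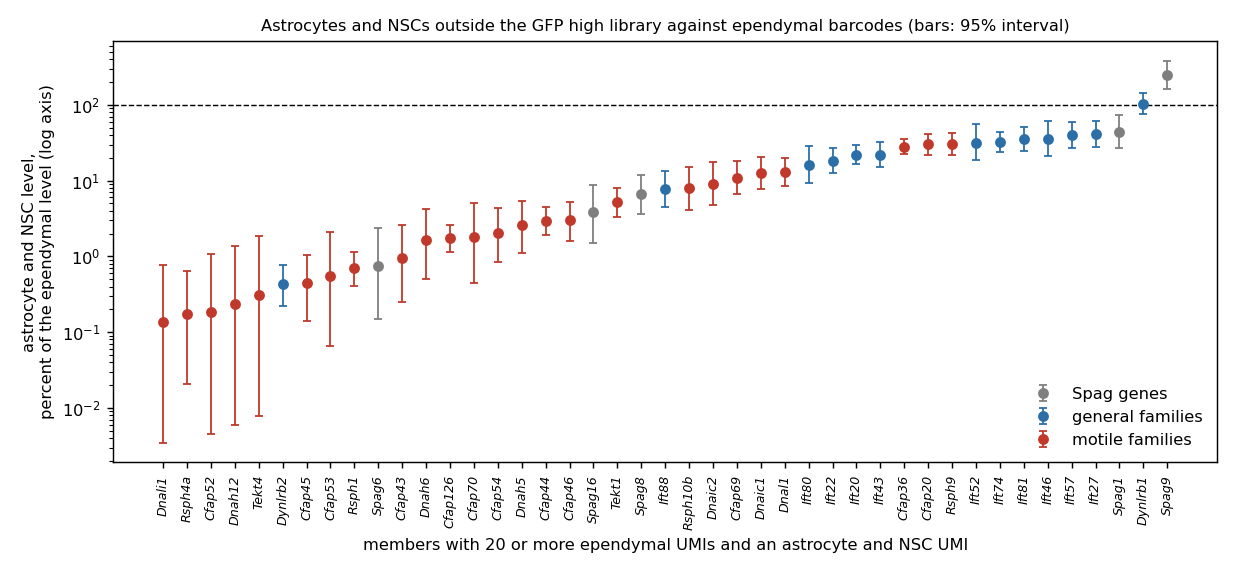
Level of each member in astrocytes and NSCs outside the GFP high library as a percentage of its level in ependymal barcodes, on a log axis, for members with at least 20 ependymal UMIs and a UMI in astrocytes and NSCs. Bars are 95% intervals for counting error, and the dashed line is equal level. The points run from Dnali1 (0.136%) to Spag9 (244.7%), and the motile members shown end at Rsph9 (30.2%). Members with few ependymal UMIs are left out by the minimum, so it helps set where the motile points end.

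Astrocytes and NSCs were tested against neuroblasts, the migrating young neurons of the lineage, in the 7 libraries other than GFP high, each with at least 20 barcodes of both classes. The filter on low counts left 21 of 68 members. Of these, 10 were higher in astrocytes and NSCs, where 33.3% of all 7053 genes tested were, and 1 was lower, where 23.0% were. The members' share of higher calls, 10 of 21 tested, is read only beside that background. The median log2 change over all genes was 0.10 in this fit and -0.01 with DESeq2 scaling, -0.09 without the filter and -0.13 without barcodes that hold an ependymal marker UMI, and the share of calls that were higher was 59.1%, 45.9%, 48.0% and 46.8%, so small changes shift with the scaling.

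Rsph9 and Spag1 had the largest changes. Rsph9 ranged from 52.0 CPM to 163.1 (median 105.5) over the astrocyte and NSC sums of the 8 libraries and from 0 to 57.5 (median 13.1) over the 7 neuroblast sums, and was higher in astrocytes and NSCs in 7 of 7 libraries (log2 fold change 2.72, SE 0.3, edgeR adjusted p = 4.147e-18). Spag1 ranged from 0 to 121.1 (median 59.6) and from 0 to 13.5 (median 9.58), and was higher in 6 of 7 libraries (2.84, SE 0.4, adjusted p = 7.517e-12). The exception was GFP negative, whose 28 astrocyte and NSC barcodes held 18390 UMIs in all and no Spag1. Neither gene had passed in the ependymal comparison.

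Transport genes followed with smaller changes. Ift57, of IFT-B, ranged from 0 to 116.3 CPM (median 77.3) in astrocytes and NSCs and from 10.9 to 57.5 (median 28.9) in neuroblasts (log2 fold change 1.94, SE 0.29, edgeR adjusted p = 1.231e-10). Ift74 ranged from 54.4 to 209.3 (median 103.8) and from 45.9 to 257.7 (median 60.0), with ranges that overlap and the astrocyte and NSC sum higher in 6 of 7 libraries (1.23, SE 0.22, adjusted p = 7.42e-08). Spag9 (1.0) and Cfap36 (0.98) were also called (Cfap36 not by DESeq2, adjusted p = 0.0712), and Ift81 (0.88) and Ift22 (0.9) were called in 7 of 13 and 4 of 8 alternative fits that tested them. Dnal1 (0.91) and Cfap20 (0.59) passed here but in none of 8 and none of 13 alternatives. The values of Spag9, Dnal1 and Cfap20 in this fit lay above those of every alternative. The alternatives ran from 0.58 to 0.92, from 0.55 to 0.87 and from 0.25 to 0.52 in that order.

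Dynlrb1 went the other way. It ranged from 373.6 to 753.8 CPM (median 544.1) in neuroblasts and from 217.5 to 403.2 (median 259.5) in astrocytes and NSCs, and was higher in neuroblasts in 7 of 7 libraries (log2 fold change -0.58, SE 0.14, edgeR adjusted p = 9.852e-05, lower in 13 of 13 alternatives). Dnal4 was also higher in neuroblasts in 7 of 7 libraries and missed the threshold (-0.57, adjusted p = 0.08678), while 9 of 12 alternatives called it. Over the alternatives Dynlrb1 ran from -0.96 to -0.68 and Dnal4 from -1.0 to -0.6, all lower than in this fit. Ift20 was not called (0.14, from -0.3 to 0.46 over the alternatives). Dnaic1 was too low to be tested in this fit. Its astrocyte and NSC sums ranged from 0 to 49.7 (median 29.5) against 0 to 1.31 in neuroblasts and 0 to 2.81 in oligodendrocytes, and without the filter it was called (4.75 over neuroblasts, edgeR adjusted p = 2.487e-09).

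Among the listed genes under other names, 10 of 17 transport genes and 9 of 16 transition zone genes tested were higher in astrocytes and NSCs than in neuroblasts, and 0 and 1 (Cep83, -0.61) were lower, beside 33.3% higher and 23.0% lower over all genes. Of 4 hedgehog genes tested 3 were higher and 1, Cdon (-1.28), was lower. Named after their values were seen, Rfx4 had a log2 fold change of 4.77, Rfx3 1.37, the hedgehog factor Gli3 2.97 and its receptor Ptch1 2.56. Of 7 genes of the motile axoneme and dynein assembly that were tested, 6 were higher, among them Enkur (3.87) and Ccdc39 (1.89). Dnaaf2 (-1.33) was lower. All these counts of listed genes are from the main fit, where the median over all genes was 0.10. In the alternatives named above that median ran from -0.13 to -0.01, and their counts of listed genes are not given. Calls at small changes may thus shift with the scaling.

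Against oligodendrocytes, which carry few cilia once mature, 8 of 23 members tested were higher in astrocytes and NSCs and 0 lower, in the same 7 libraries, where 19.9% of 7837 genes were higher and 19.7% lower. At an unadjusted p, 11 were higher and 3 lower, with no share of all genes given at that threshold. DESeq2 called 10 higher and 2 lower, Cfap36 and Dynlrb1 (10.0% and 11.6% of genes with an adjusted p). Rsph9 ranged from 4.53 to 23.5 CPM (median 8.80) in oligodendrocytes, below every astrocyte and NSC sum (log2 fold change 3.07, SE 0.38, edgeR adjusted p = 4.19e-10). Spag1 ranged from 2.20 to 25.4 (median 5.25; 3.03, SE 0.5, adjusted p = 7.11e-07). Ift74 ranged from 12.7 to 63.3 (median 31.7; 1.8, SE 0.31, adjusted p = 2.467e-06), Ift57 from 4.53 to 47.0 (1.57) and Ift81 from 4.53 to 38.5 (1.82). Ift122 of the IFT-A train (1.57, adjusted p = 0.02177) and Ift27 (0.98) were called too, and Cfap20 (0.69, adjusted p = 0.03415) was called in 5 of 13 alternatives. The astrocyte and NSC sums are those of both comparisons, so the calls in one are not separate evidence for the other.

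Listed genes in this comparison included both directions. Rfx4 (5.31), Rfx3 (2.81), Smo (5.13), Gli3 (4.87), Gas1 (4.77) and Enkur (5.48) were higher in astrocytes and NSCs. Hhip, a hedgehog-binding protein (-4.73), Tppp3, a tubulin-binding protein (-2.54), and Kif3a, a kinesin-2 motor of IFT (-0.75), were lower.

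**Figure D4:**
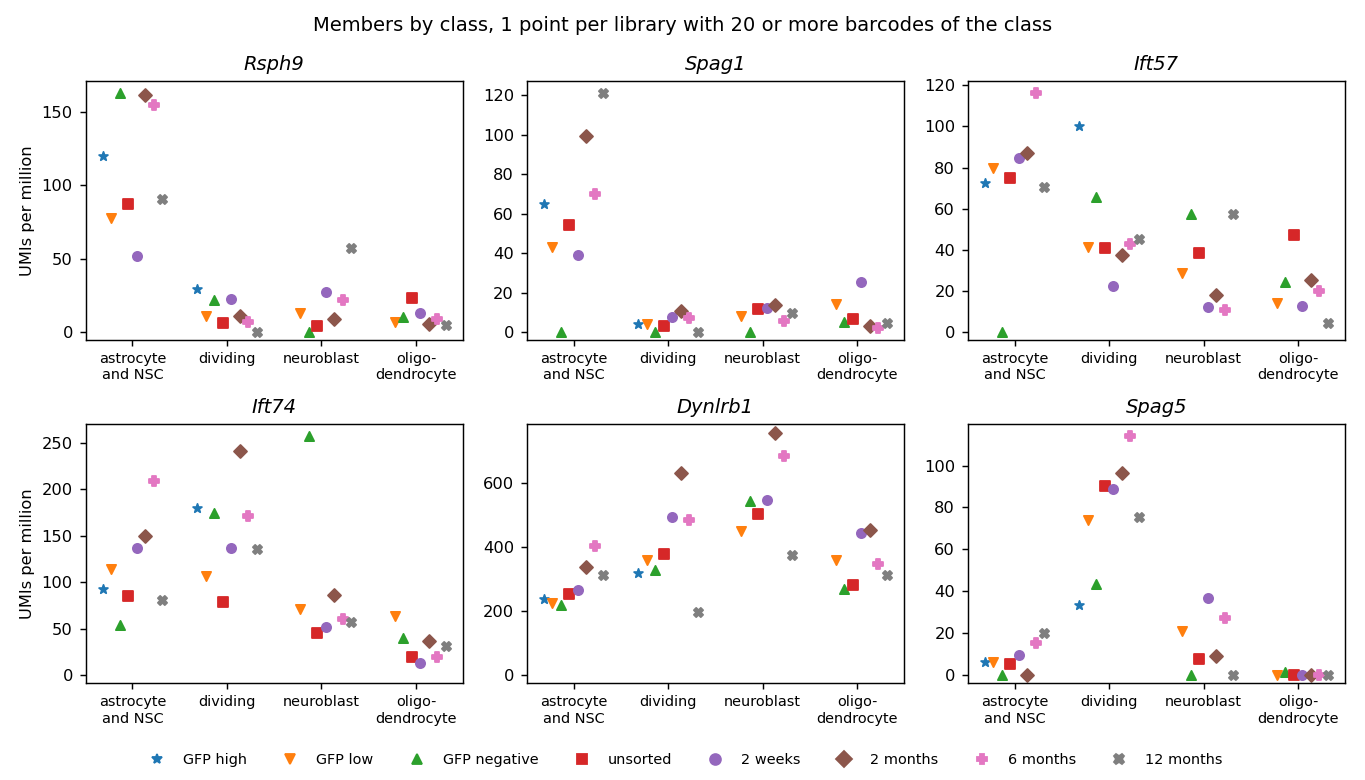
Levels of 6 members in CPM by class, with 1 point for each library that has at least 20 barcodes of the class and 1 symbol for each library. Rsph9 and Spag1 are high in astrocytes and NSCs, Dynlrb1 is highest in neuroblasts, and Spag5 lies between 33.5 and 114 in dividing progenitors and at or below 36.8 in neuroblasts.

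Dividing progenitors against neuroblasts gave 4 of 18 tested members higher and 2 lower, where 17.9% of 6190 genes were higher and 16.4% lower. Spag5, a protein of the mitotic spindle in spite of its sperm antigen symbol, ranged from 43.7 to 114 CPM in dividing progenitors of the 7 libraries and from 0 to 36.8 (median 9.03) in neuroblasts, and was higher in 7 of 7 (log2 fold change 2.16, SE 0.29, edgeR adjusted p = 3.326e-12). In ependymal barcodes it was at 5.7 CPM. Ift74 was higher (0.97, adjusted p = 3.738e-06), as were Cfap36 (0.6, adjusted p = 0.001613) and Ift22 (0.81, adjusted p = 0.01432), the last in 7 of 11 alternatives. Ift20 (-0.85, adjusted p = 0.0002928) and Dynlrb1 (-0.34, adjusted p = 0.001663) were lower in dividing progenitors. Of 14 transport genes under other names 1 was higher and 3 were lower, Kif3a (-0.57), Kifap3 (-0.65) and Wdr60 (-0.93). Of 14 transition zone and ciliary membrane genes tested, 5 were higher and 0 lower. The list of multiciliated cell regulators had 3 of 5 tested higher. That of the motile axoneme and dynein assembly had 2 of 4 higher, and hedgehog signalling 1 of 3. None in these lists was lower.

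Between sort gates the motile sum was highest in GFP high. With 1 library a gate there is no test, and ratios carry intervals for counting error only. In whole libraries fewer cells of a type and less RNA per cell cannot be told apart. The motile sum of GFP high was 1634 CPM, against 463.7 CPM with GFP low, 411.2 with GFP negative and 546.2 in unsorted, and the general sums in that order were 1498, 1111, 801.7 and 1022. GFP high over GFP low was 3.52 (3.29 to 3.78) for motile and 1.35 (1.28 to 1.42) for general families. The class make-up moved with the gate: ependymal barcodes were 4.43% of GFP high and astrocytes and NSCs 84.91%.

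Without ependymal barcodes the motile ratio of GFP high over GFP low was 2.00 (1.84 to 2.17) and the general ratio 1.11 (1.05 to 1.18). Within astrocytes and NSCs it was 1.44 (1.27 to 1.64) and 1.14 (1.03 to 1.26), and within dividing progenitors 1.31 (1.06 to 1.61) for motile families. Members at least 2-fold higher in GFP high than in GFP low numbered 29 of 36 motile and 5 of 24 general, where 14.2% of 15665 genes were, and 20 and 4 without ependymal barcodes, where 13.5% were. Against GFP negative they numbered 30 motile and 13 general (26.5% of genes), and without ependymal barcodes 25 and 12 (26%). Some motile members reached the UMI minimum largely through ependymal barcodes of GFP high, which raises the counts. Cfap52 had 35 UMIs in GFP high and 2 without its ependymal barcodes, and Dnah12 had 37 and 6. The counts are thus descriptions only.

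Gene by gene, Dynlrb2 stood at 147.5 CPM with the GFP high gate and at 7.0, 0 and 15.3 CPM with GFP low, GFP negative and no GFP gate. Rsph1 was at 155.9, 5.4, 1.1 and 20 CPM in that order, and Dnaic1 at 52.2, 6.6, 0 and 6.3 CPM. Within astrocytes and NSCs the members whose ratio of GFP high over GFP low left out 1 included Rsph1 (3.80, 1.51 to 12.3), Dynlrb2 (3.68, 1.12 to 19.0), Cfap126 (2.37), Cfap20 (1.80) and Rsph9 (1.55, 1.07 to 2.28), all higher, and Spag9 (0.742, 0.613 to 0.899), lower. Rsph4a had 11 UMIs in GFP high and 0 in GFP low. Astrocyte and NSC barcodes with 1 or 2 ependymal marker UMIs are part of these sums, and their share in the ratios was not tested.

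**Figure D5:**
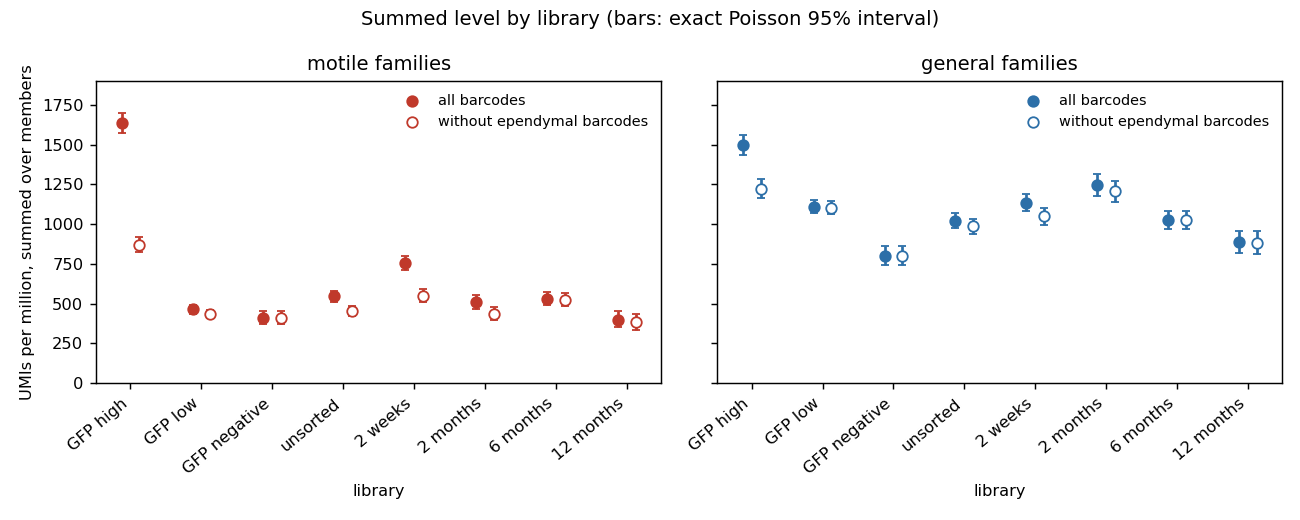
Summed level of motile families (left) and general families (right) in each of the 8 libraries, in CPM, for all barcodes (filled) and without ependymal barcodes (open). Bars are exact Poisson 95% intervals. The motile sum of GFP high falls from 1634 to 871.8 and that of 2 weeks from 753.6 to 550.6 when ependymal barcodes are left out, and the general sums move less.

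Across ages the motile sum was 753.6 CPM at 2 weeks, then 510.2, 529.3 and 400.3 for the libraries of 2, 6 and 12 months, and the general sum in that order was 1135, 1245, 1025 and 885.3. The ratio of 12 months over 2 weeks was 0.531 (0.463 to 0.607) for motile and 0.780 (0.709 to 0.857) for general families, again with 1 library an age and no test. As a scale, the 2-month library of the age series over the unsorted 2-month library gave 0.934 (0.841 to 1.04) for motile and 1.22 (1.14 to 1.31) for general families, so the general ratio with age is about as far from 1 as this pair is. By prefix this pair gave 1.70 (1.52 to 1.91) for Dynlrb, 1.03 for Ift and 0.804 for Bbs. The ratios of 12 months over 2 weeks were 0.647, 0.861 and 0.923 in that order.

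A single barcode carried part of the motile ratio. Without the largest 2-week ependymal barcode it was 0.721 (0.626 to 0.829), and without all ependymal barcodes 0.694 (0.601 to 0.800). Without ependymal barcodes the ratio of 2 months over 2 weeks was 0.790 and of 6 months over 2 weeks 0.954. Within a class the intervals of 12 months over 2 weeks reached 1: 0.827 (0.615 to 1.10) in astrocytes and NSCs, 0.721 (0.496 to 1.03) in neuroblasts, 0.642 (0.384 to 1.02) in dividing progenitors, 0.785 (0.520 to 1.21) in oligodendrocytes, 0.585 (0.317 to 1.03) in microglia and, in the other direction, 1.38 (0.581 to 3.62) in mature neurons. In mature neurons the ratio of 6 months over 2 weeks was 2.36 (1.16 to 5.61), on 8 motile UMIs at 2 weeks.

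Members at least 2-fold lower at 12 months than at 2 weeks numbered 23 of 36 motile and 2 of 24 general, where 14.1% of genes were, and 16 and 2 without ependymal barcodes, where 13.6% were. Without ependymal barcodes, among members with UMIs at both ages, Ift80 (1.86) was higher at 12 months with an interval that left out 1. Lower, also with such an interval, were Dnal1 (0.354), Spag5 (0.373), Cfap97 (0.492), Ift27 (0.540), Ift74 (0.599), Cfap20 (0.631), Dynlrb1 (0.716) and Spag9 (0.798). For Dynlrb1 the scale between libraries is wide. Without ependymal barcodes the Dynlrb sum of 2 months in the age series over unsorted gave 1.73 (1.54 to 1.94). Dynlrb2 had 13 UMIs at 2 weeks and 0 at 12 months outside ependymal barcodes, and its interval left out 1 as well. These intervals are not adjusted for the number of members, and the share of all genes with such an interval is not given.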

How the data were processed

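Drop-seq counts were deposited by the authors as tables of genes by barcodes, 1 table for each of 8 libraries, with raw UMI counts and no normalization. The builds mm10 and GRCm38 are named in the submitters' processing notes, while no aligner or counter is named in the sources used here. Tables that the series holds besides the count tables were not used here. The members and gene lists were chosen with earlier results of these data known.

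Barcodes with at least 400 UMIs were kept (1917 were not). A barcode was ependymal with at least 3 UMIs of its 3 markers, and otherwise took the class with the most marker UMIs (at least 3, with no tie). Markers of at least 2 classes were held by 2359 kept barcodes, and no doublet caller was run. Counts were summed by library and class and tested with edgeR 4.0.16 in R 4.3.3 (TMM, filterByExpr, quasi-likelihood test, library as a block, Benjamini-Hochberg over all genes tested, threshold 0.05). DESeq2 1.42.0 was an alternative. The script was tested on simulated data. Levels have exact Poisson intervals, ratios exact conditional binomial intervals and shares Clopper-Pearson intervals, all at 95% and for counting error only. Python 3.11.15 with scipy 1.17.1 was used for these.

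Library values are given for the 2 members of each prefix with the most UMIs, for both Dynlrb genes, for Spag5 and for general members called at a log2 fold change of at least 2. Other named genes were chosen after their values were seen.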

Additional observations from a re-analysis of the deposited data

How the results depend on the processing

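No called member and no summed ratio changed direction. Of 120 log2 fold changes of members, 20 changed sign under at least 1 alternative, 0 of them called, among them Bbs2 (-0.98 to 0.88) and Dnal4 (-0.48 to 1.18) in ependymal barcodes and Ift20 against neuroblasts (-0.3 to 0.46). Of the counts and summed ratios under other settings, 75 stayed near the main value and 43 moved. Of the values for named members, 478 kept their side of the threshold, 32 passed it newly and 34 no longer passed it. For ependymal barcodes, the count of general members called higher went from 1 to 2 with no filter, 3 with no library block, 2 with at least 1000 UMIs per barcode, 11 against astrocytes and NSCs only, and 6 with every library that has an ependymal barcode (chosen after seeing the data). Against oligodendrocytes, the 8 higher became 17 with no filter and 5 without barcodes of several classes, and the 0 lower became 2 with DESeq2 and 2 without barcodes of several classes. Leaving out each library in turn gave 7 to 10 higher and 0 to 2 lower. Against neuroblasts, the 10 higher became 20 with no filter, 5 with no library block and 4 without barcodes of several classes. The 1 lower became 2 with DESeq2, 3 with no filter, 2 with no library block, 2 without barcodes of several classes and 2 without barcodes that hold an ependymal marker UMI (also chosen after seeing the data). Leaving out each library gave 6 to 10 higher, with 6 without unsorted and 6 without 2 weeks, and 1 to 2 lower. For dividing progenitors, the 4 higher and 2 lower became 1 and 1 with no library block, and 3 to 5 and 2 to 3 on leaving out each library. The cause of these shifts was not tested.

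The motile ratio of GFP high over GFP low, 3.52, was 4.27 with at least 1000 UMIs, 2.0 without ependymal barcodes and 2.79 as a mean of per-barcode values, and the general ratio, 1.35, was 1.48, 1.11 and 1.24. Over GFP negative the motile ratio, 3.97, was 4.48, 2.12 and 3.36, and the general ratio, 1.87, was 1.52 without ependymal barcodes. The motile ratio of 12 months over 2 weeks, 0.531, was 0.694 without ependymal barcodes, 0.687 as a per-barcode mean and 0.721 without the largest 2-week ependymal barcode, and the general ratio, 0.780, was 0.86 as a per-barcode mean. The ependymal comparison could not be fitted without barcodes of several classes, with at least 20 ependymal barcodes a library, or on leaving out a library, since each leaves 1 library, and nor could the dividing progenitor comparison without barcodes of several classes. No paired analysis was possible because the labels give the groups 1 library each and no shared replicate number. Depth limits members with few UMIs, above all in the 28 astrocyte and NSC barcodes of GFP negative.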
